A study of Homo sapiens with 3 samples.

Results

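The nuclear-encoded subunits of respiratory complexes I to IV comprised 59 of the 58381 genes of the count table. They were the protein-coding genes whose symbols named them as a complex I subunit (the NDUFA, NDUFB, NDUFC, NDUFS and NDUFV series), a succinate dehydrogenase subunit (SDHA to SDHD), 1 of 8 UQCR subunits of complex III or 1 of 10 COX subunits of complex IV, and the rule that chose them reads symbols and no measured value. Complex I contributed 37 members, complex II 4, complex III 8 and complex IV 10. RNA was sequenced from T24, an established human bladder urothelial carcinoma cell line, in 3 conditions with 1 library each. Ctrl cells received no irradiation (their treatment label reads Empty), RT cells received 10 Gy of ionising radiation, and RT + shHDAC6 cells received 10 Gy and carried a lentiviral shRNA against HDAC6, a largely cytoplasmic deacetylase. The protocol text for all 3 libraries describes lentiviral infection with the shRNA or a control pLKO.1 vector followed by puromycin selection, while the study's account of the experiment calls the comparator parental cells, so whether Ctrl and RT carried the empty vector is uncertain. The time between irradiation and RNA extraction is not given in the sources used here, and neither is whether the knockdown cells were 1 clone or a pool.

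With 1 library per condition no difference had a replicate check and no test across samples was possible. Log2 ratios were therefore taken between libraries scaled by TMM (trimmed mean of M values, a factor per library that sets most genes to equal levels), and each is given with a 95% interval that covers counting error only. RT against Ctrl is called the irradiation comparison and RT + shHDAC6 against RT the knockdown comparison, and where 3 values stand together they belong to Ctrl, RT and RT + shHDAC6, in that order. The total counts lay between 35424086 and 41811165 per library, and 12113 genes averaged 100 counts or more over the 3 libraries and are the genes called tested, that is held against a size of log2 ratio, 56 of the 59 members among them. HDAC6 itself, the target of the shRNA, had 3098, 2383 and 2170 counts, with log2 ratios of 0.06 (-0.02 to 0.13) in the irradiation and -0.20 (-0.28 to -0.11) in the knockdown comparison. The latter had the direction the label gives and was small. All 6 epithelial markers examined (KRT7, KRT8, KRT18, KRT19, EPCAM and CDH1) were detected, with a summed level of 312 to 414 scaled CPM (counts per 1000000 counts of the scaled library), whereas 8 markers of leukocytes, endothelium and fibroblasts summed to 33.9 to 49.8 CPM, mostly DCN and PECAM1, and none of the 14 was listed at 0 in any library. KRT7 had 3533, 3854 and 597 counts. Their part in the results was not tested.

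The respiratory chain passes electrons from NADH (complex I) and succinate (complex II) through ubiquinone to complex III, then by cytochrome c to complex IV, which reduces oxygen. Complexes I, III and IV pump protons across the inner mitochondrial membrane, and complex V uses that gradient to make ATP. Most subunits are encoded in the nucleus and imported, the membrane-embedded core of complexes I, III and IV is encoded in mitochondrial DNA, and complex II is wholly nuclear. Nuclear respiratory factor 1 (NRF1), the ETS-family factor GABP (also called NRF2) and YY1 are known transcriptional regulators of many of these nuclear genes.

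Because the members are known for such shared promoter elements, short letters of the 3 factors were searched on both strands of the RefSeq promoter windows of GRCh38.p14, which run from 250 bases before to 50 bases after each transcription start. A window was found for 50 of the 59 members. The NRF1 letters GCGCATGCG were in 6 of these 50 windows (12%) and in 2.36% of the 22198 windows of protein-coding genes. The ETS letters CCGGAAG were in 15 (30%) against 12.8%, and the YY1 letters AAGATGGCG in 7 (14%) against 2.41%. No match of a factor shared bases with a match of another in the members' windows, and 26 of the 50 windows held none of the 3. The stretches around the NRF1 letters are shown for each of the 6 genes that held them, and those of COX5B, NDUFS3 and UQCR11 because these 3 held the ETS letters more than once (chosen after the search). Capitals mark the NRF1 and ETS letters on either strand, and each stretch is written 5′ to 3′ on the strand of its gene.
NDUFA8 (chr9:122159770-122159795, minus strand): gtgttgccggatGCGCATGCGCaggc
NDUFB4 (chr3:120596165-120596198, plus strand): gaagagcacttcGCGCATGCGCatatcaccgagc
NDUFS6 (chr5:1801349-1801381, plus strand): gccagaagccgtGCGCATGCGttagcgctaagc
NDUFS7 (chr19:1383821-1383853, plus strand): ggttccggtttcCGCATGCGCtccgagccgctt
SDHD (chr11:112086751-112086814, plus strand): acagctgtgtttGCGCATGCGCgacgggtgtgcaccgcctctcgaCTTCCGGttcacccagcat
COX6A1 (chr12:120437882-120437914, plus strand): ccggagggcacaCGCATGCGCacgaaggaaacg
COX5B (chr2:97646013-97646071, plus strand): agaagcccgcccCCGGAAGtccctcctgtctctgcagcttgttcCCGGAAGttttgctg
NDUFS3 (chr11:47578960-47579009, plus strand): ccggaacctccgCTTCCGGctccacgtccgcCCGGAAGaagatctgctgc
UQCR11 (chr19:1605541-1605591, minus strand): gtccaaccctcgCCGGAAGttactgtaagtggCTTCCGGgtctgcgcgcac
The matches describe these letters only. Binding was not measured in these data.

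The members were expressed at very different levels. In scaled CPM per kilobase of the canonical transcript, COX4I1, which joins the mitochondrially encoded MT-CO1 early in the building of complex IV, stood highest at 258, 297 and 299. It was followed in Ctrl by UQCRH, the hinge subunit of complex III, at 148, by UQCRC1, a core protein of the same complex, at 136, and by NDUFB9, an accessory subunit of the distal membrane arm of complex I, at 116. NDUFB9 moved to the second place in RT, at 204, and kept it in RT + shHDAC6, at 186. At the lower end in Ctrl were NDUFA7 at 0.456, NDUFA9 at 0.699, NDUFC2 at 0.895 and SDHD at 2.90. Each of these shared exon length with another gene on the same strand (32.5%, 10.6%, 18.6% and 11.4%, in that order). The part of such sharing in their levels was not tested, so the values do not show that these genes were barely expressed. The order depended on the length used. Only 5 of the 10 highest members by length of all annotated exons were also among the 10 highest by canonical transcript. By length of all annotated exons the accessory subunit NDUFS5 led at 93.8 in Ctrl, and NDUFB9 stood 44th of the 59 members. Neighbours in the order cannot be separated without replicates. Median levels per kilobase of canonical transcript in Ctrl were 30.4 in complex I, 65.4 in complex II, 18.9 in complex III and 63.1 in complex IV.

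Compared to Ctrl, the members as a whole differed little in RT. Their median log2 ratio was 0.08, beside 0.07 over all genes tested, and their interquartile range was 0.39, beside 0.65. At least 1.5-fold higher were 4 of 56 members (7.14%), beside 16.3% of all genes tested, and 0 were at least 1.5-fold lower, beside 8.16%. At least 25% higher were 15 members (26.8%), beside 30.4%, and 1 (1.79%) was at least 20% lower, which is the same fold, beside 20.2%. By complex, the medians were 0.19 in complex I, -0.04 in complex II, -0.05 in complex III and 0.07 in complex IV. In bulk RNA a change in the number of cells and a change in RNA per cell cannot be told apart. The scaling set much of the sign: library totals alone lowered the median log2 ratio of all genes by 0.22, and the sign of 23 of the 56 members differed among 5 scalings (TMM, library totals with and without mitochondrially encoded genes, upper quartile and median of ratios). The members' median lay 0.01 above that of all genes. A scaling adds the same amount to every log2 ratio of a comparison, so this distance cannot differ among the 5.

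**Figure D1:**
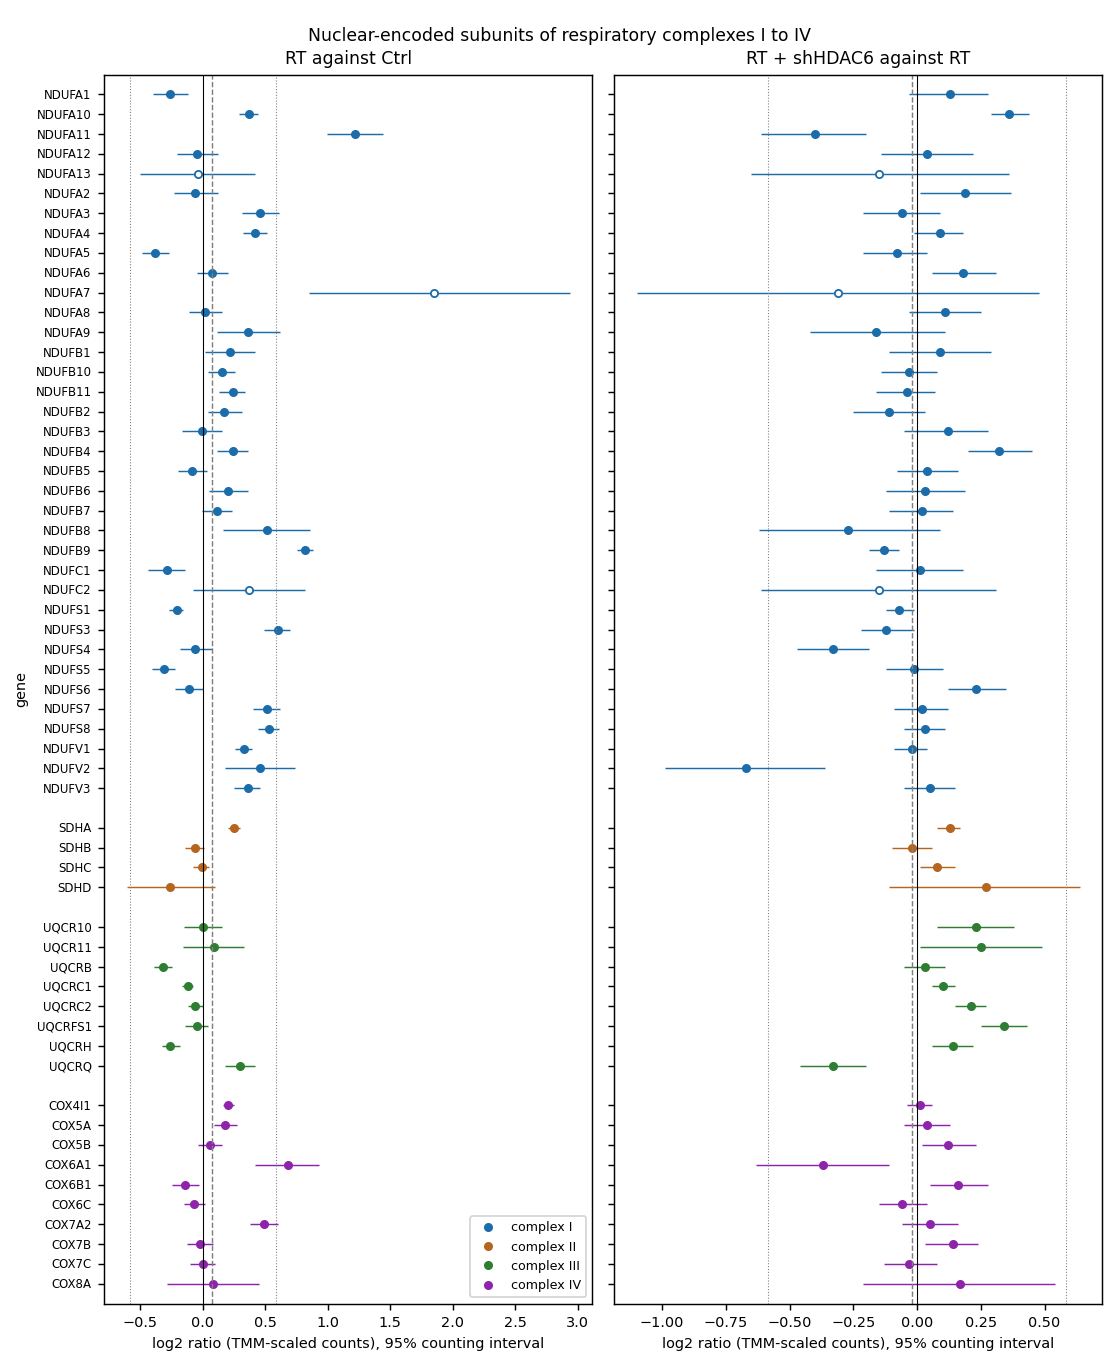
Log2 ratios of TMM-scaled counts of 58 of the 59 members (x axis) by gene and complex (y axis), RT against Ctrl on the left and RT + shHDAC6 against RT on the right, with 95% counting intervals as bars. Open points are the 3 members with a mean under 100 counts, the dashed line is the median of all genes tested (0.07 and -0.02) and dotted lines mark 1.5-fold; among the filled points NDUFA11 stands furthest right on the left side (1.22) and NDUFV2 furthest left on the right side (-0.67).

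The 7 core subunits of complex I encoded in the nucleus, which hold the flavin, the iron-sulphur clusters and the quinone site, had a median log2 ratio of 0.46 in the irradiation comparison, beside 0.07 over all genes, and 5 of the 7 were at least 25% higher, beside 30.4% of all genes. Their median stayed above 0 under all 5 scalings, at 0.24 to 0.52. NDUFS3, a subunit of the quinone-binding arm, had 1326, 1483 and 1429 counts, or 29.2, 44.2 and 40.8 scaled CPM. Its log2 ratio of 0.60 (interval 0.49 to 0.70) lay just past 1.5-fold, which is 0.58 on the log2 scale. NDUFS8, which carries iron-sulphur clusters, was just under that limit, with 45.6, 65.6 and 67.0 CPM and a log2 ratio of 0.53 (0.44 to 0.61). NDUFS7, which carries the last iron-sulphur cluster before quinone, lay beside it at 30.4, 43.3 and 43.8 CPM, with 0.51 (0.40 to 0.62). NDUFV2 (iron-sulphur) had a log2 ratio of 0.46 (0.18 to 0.74) on only 216 and 220 counts. It was the middle value of the 7, so the median given above is the log2 ratio of NDUFV2 alone. A named copy held 32.7% of the counts of NDUFV2 and copy, so that value is uncertain. NDUFV1, the flavoprotein that binds NADH, had 0.33 (0.26 to 0.39). NDUFS1, the largest nuclear-encoded core subunit, was the only 1 of the 7 below 0. It had 8090, 5156 and 5133 counts, or 178, 154 and 147 CPM, and a log2 ratio of -0.21 (-0.27 to -0.16). With the most counts of the 7 it weighed on their sum, whose log2 ratio with TMM scaling was 0.16 (0.13 to 0.19). As a share of the library, without TMM scaling, that sum was lower in RT (0.04735%) than in Ctrl (0.04931%).

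The accessory subunits of complex I, which surround and stabilise the core, ranged more widely. The 27 that were tested had a median of 0.15, from -0.38 to 1.22, and 8 (29.6%) were at least 25% higher, beside 30.4% of all genes, and 1 (3.7%) at least 20% lower, beside 20.2%. NDUFA11, an accessory subunit of the membrane arm, had 258, 443 and 350 counts, or 5.69, 13.2 and 10.0 CPM. Its log2 ratio of 1.22 (0.99 to 1.44) was the highest of the tested members and the only one past 2-fold. NDUFB9 followed with 3625, 4723 and 4510 counts, or 79.9, 141 and 129 CPM, and 0.82 (0.75 to 0.88). Both irradiated libraries stood above Ctrl for these 2 genes. At the other end, NDUFA5, a subunit of the peripheral arm, had 1850, 1051 and 1035 counts, or 40.8, 31.3 and 29.6 CPM, and a log2 ratio of -0.38 (-0.49 to -0.27). NDUFS5 (-0.31, interval -0.41 to -0.22), NDUFC1 (-0.29, interval -0.44 to -0.14) and NDUFA1 (-0.26, interval -0.40 to -0.12), all small accessory subunits of the membrane arm, came next. These 4 genes were lower in both irradiated libraries than in Ctrl. The 11 members of the NDUFB series, which belong to the membrane arm, had a median of 0.20. With TMM 9 of them lay above 0, as did 56.2% of all genes. With library totals NDUFB1, NDUFB2, NDUFB6, NDUFB7 and NDUFB10 turned to below 0. NDUFA4 bears a complex I name but is now placed in complex IV; its log2 ratio was 0.42 (0.32 to 0.51), and moving it left the medians at 0.17 for complex I and 0.08 for complex IV.

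Complex II links the citric acid cycle to the chain. SDHA, the flavoprotein that oxidises succinate, had 7672, 6740 and 7674 counts, or 169, 201 and 219 CPM, with a log2 ratio of 0.25 (0.20 to 0.30) in the irradiation comparison. SDHB, the iron-sulphur subunit, had 77.1, 73.8 and 72.6 CPM and -0.06 (-0.14 to 0.01). The membrane anchor SDHC had 88.9, 88.0 and 93.0 CPM and -0.01 (-0.08 to 0.05), and the other anchor, SDHD, had 176, 109 and 137 counts and -0.26 (-0.61 to 0.10). The interval spanned 0 for SDHB, SDHC and SDHD, and 0 of the 4 genes was at least 25% higher or 20% lower. Named pseudogene copies held 32.5% of the counts assigned to SDHA and its copies and 15.4% for SDHD, so their counts are uncertain.

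With TMM scaling the sum over the 8 members of complex III, which leave out CYC1, was lower in RT than in Ctrl. Its log2 ratio was -0.12 (-0.15 to -0.09), and the sums over the members of the other complexes were higher. As shares of the library, without TMM scaling, the sums of all 4 complexes were lower in RT. The median over the 8 members of complex III was -0.05, and 0.01 with median-of-ratios factors. UQCRB, a ubiquinone-binding subunit, had 4409, 2620 and 2794 counts, or 97.2, 78.1 and 79.8 CPM, and -0.32 (-0.39 to -0.25). UQCRH had 79.6, 66.7 and 73.4 CPM and -0.26 (-0.33 to -0.18). The core proteins UQCRC1 (217, 200 and 215 CPM) and UQCRC2 (128, 123 and 142 CPM) had log2 ratios of -0.12 (-0.17 to -0.08) and -0.06 (-0.12 to 0.00), and the Rieske iron-sulphur protein UQCRFS1 -0.05 (-0.14 to 0.04). UQCRQ was higher instead, at 0.30 (0.18 to 0.42), with 25.9, 31.8 and 25.4 CPM. UQCRQ was thus high in the RT library and close to Ctrl in the knockdown library.

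In complex IV, 2 of 10 members were at least 25% higher in RT, beside the 30.4% of all genes given above, and 0 at least 20% lower. COX6A1, a regulatory subunit, had 232, 274 and 221 counts, or 5.12, 8.17 and 6.31 CPM, and a log2 ratio of 0.68 (0.42 to 0.93). Named copies of COX6A1 together held 42.0% of the counts of gene and copies, with 178, 186 and 163 counts, so the value is uncertain. COX7A2 had 29.5, 41.5 and 43.0 CPM and 0.49 (0.38 to 0.60). The abundant subunits COX4I1 and COX5A had 0.20 (0.16 to 0.25) and 0.18 (0.09 to 0.27), and COX5B 0.06 (-0.04 to 0.15); the signs of all 3 turned with library totals. COX6B1, which faces cytochrome c, was at -0.14 (-0.25 to -0.03).

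Compared to RT alone, the RT + shHDAC6 library differed even less in these genes. The median over the 56 members was 0.03, beside -0.02 over all genes tested, with an interquartile range of 0.18 beside 0.32. At least 1.5-fold higher were 0 members, beside 2.7% of all genes, and 1 (1.79%) was at least 1.5-fold lower, beside 5.18%. At least 25% higher were 3 members (5.36%), beside 9.07%, and 5 (8.93%) were at least 20% lower, beside 14.2%. Both comparisons use the RT library, so a low or high value in it moves them in opposite directions, and no relation between them is given. The medians by complex were 0.02 in complex I, 0.10 in complex II, 0.17 in complex III and 0.04 in complex IV.

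In complex III, 7 of 8 members lay above 0 in the knockdown comparison, 6 of them with an interval above 0, beside 46.5% and 25.2% of all genes, and none of the 8 changed sign among the 5 scalings, under which the median was 0.16 to 0.26. UQCRFS1, which passes electrons from ubiquinol towards cytochrome c1, had 2379, 1702 and 2244 counts, or 52.5, 50.7 and 64.1 CPM. Its log2 ratio of 0.34 (0.25 to 0.43) was the highest in the complex, and the knockdown library was above both others. UQCR11 had 0.25 (0.01 to 0.49), UQCR10 0.23 (0.08 to 0.38), UQCRC2 0.21 (0.15 to 0.27), UQCRH 0.14 (0.06 to 0.22), UQCRC1 0.10 (0.06 to 0.15) and UQCRB 0.03 (-0.05 to 0.11). UQCRQ was the exception at -0.33 (-0.46 to -0.20). With TMM scaling the sum over these 8 members was 626, 576 and 630 CPM. For them the knockdown library was thus close to Ctrl and the RT library below both. As shares of the library, without TMM scaling, the sum was 0.0679%, 0.05375% and 0.06231%. The RT library was then also the lowest, but the knockdown library lay below Ctrl. That sum leaves out CYC1, the cytochrome c1 core subunit of the complex, which the choice of symbols did not include. It ran the other way, with 110, 151 and 134 CPM. Its log2 ratios were 0.46 (0.40 to 0.52) in the irradiation comparison and -0.17 (-0.23 to -0.12) in the other. The dip in RT thus describes the 8 members and not the whole complex.

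**Figure D2:**
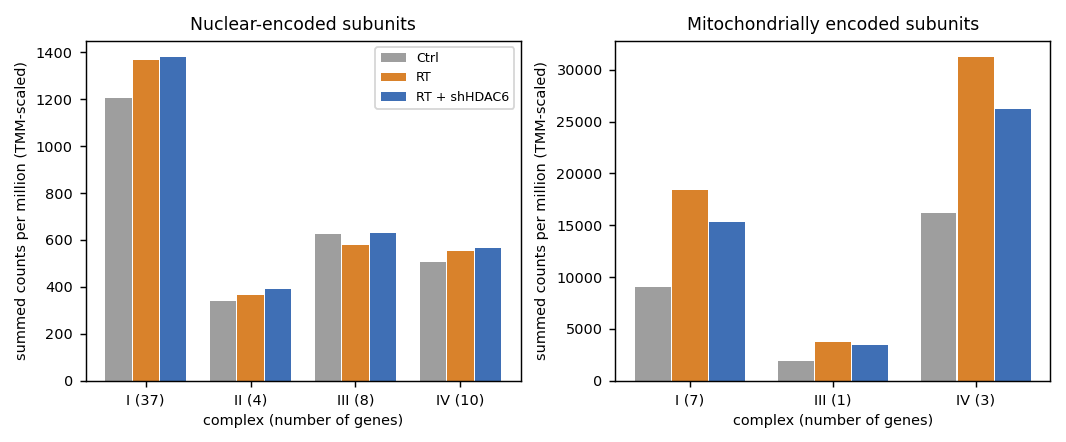
Summed TMM-scaled CPM (y axis, from 0) of the nuclear-encoded subunits (left) and the mitochondrially encoded subunits (right) of each complex (x axis, number of genes in brackets), 1 bar per library and no error bar since each condition is 1 library. The sum of the 8 nuclear members of complex III, which leave out CYC1, dips in RT (576, beside 626 and 630). All 3 mitochondrially encoded sums are highest in RT.

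Complex I had the extremes of this comparison. NDUFV2 had 216, 220 and 144 counts, or 4.76, 6.56 and 4.11 CPM, and a log2 ratio of -0.67 (-0.99 to -0.36), the only member past 1.5-fold. Its named copy had 132, 84 and 66 counts, 32.7% of the counts of gene and copy, so the value is uncertain. NDUFA11 followed at -0.40 (-0.61 to -0.20), and NDUFS4, an accessory subunit of the NADH-oxidising module, had 27.2, 26.2 and 20.9 CPM and -0.33 (-0.47 to -0.19). Outside complex I, COX6A1 at -0.37 (-0.63 to -0.11) and UQCRQ completed the 5 lowest. NDUFA10, an accessory subunit with a nucleoside kinase fold, had 2950, 2816 and 3784 counts, or 65.1, 84.0 and 108 CPM, and the highest log2 ratio, 0.36 (0.29 to 0.44); its level was thus lowest in Ctrl and highest in RT + shHDAC6. NDUFB4, of the distal membrane arm, had 23.8, 28 and 35.0 CPM and 0.32 (0.20 to 0.45), the same order of libraries. Of the other core subunits of complex I, NDUFS3 was at -0.12 (-0.22 to -0.01) and NDUFS8 at 0.03 (-0.05 to 0.11), with NDUFS1 at -0.07 (-0.12 to -0.01), NDUFV1 at -0.02 (-0.09 to 0.04) and NDUFS7 at 0.02 (-0.09 to 0.12). In complex II, SDHA had 0.13 (0.08 to 0.17), SDHC 0.08 (0.01 to 0.15), SDHB -0.02 (-0.10 to 0.06) and SDHD 0.27 (-0.11 to 0.64). In complex IV the abundant subunits were close to 0, at 0.01 (-0.04 to 0.06) for COX4I1, 0.04 (-0.05 to 0.13) for COX5A and 0.12 (0.02 to 0.23) for COX5B. Among the 48 tested members with a promoter window, the 6 with the NRF1 letters had a median of 0.17 and the other 42 one of 0.04, and in the irradiation comparison 0.13 and 0.10. For the ETS letters (14 with, 34 without) the medians were 0.07 and 0.04 in the knockdown and 0.07 and 0.17 in the irradiation comparison, and for the YY1 letters (6 and 42) 0.00 and 0.04, and 0.01 and 0.13.

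Against Ctrl, the RT + shHDAC6 library had a median over the members of 0.14, beside 0.06 over all genes tested. At least 1.5-fold higher were 3 of 56 members (5.36%), beside 13.7% of all genes, and 0 were at least 1.5-fold lower, beside 10.2%. The 3 were NDUFA11 at 0.81 (0.58 to 1.05), NDUFA10 at 0.73 (0.66 to 0.80) and NDUFB9 at 0.69 (0.62 to 0.75), all accessory subunits of complex I. The lowest was NDUFA5 at -0.46 (-0.58 to -0.35). NDUFS4 was next at -0.39 (-0.52 to -0.25). The members summed to 2677, 2864 and 2967 CPM, although without TMM scaling they took 0.290%, 0.267% and 0.293% of the library.

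The members past 1.5-fold in the irradiation or the knockdown comparison all shared exons with other genes, while NDUFA10, past 1.5-fold in RT + shHDAC6 against Ctrl, shared none. Of the 56 tested members, 27 shared no annotated exon base with another gene of GENCODE release 44, and 29 shared some. The split was made after the values were seen. For NDUFB5, COX6C, UQCR10 and SDHA, the only gene that shared exons had no row in the count table. In the irradiation comparison the median was -0.01 in the former and 0.20 in the latter, and all 4 members past 1.5-fold (NDUFA11, NDUFB9, COX6A1 and NDUFS3) were among the latter. In the knockdown comparison the medians were 0.09 and -0.02, and NDUFV2 was again among those that shared exons. NDUFS3 shared 16% of its exon length with PTPMT1 on the same strand, which had 315, 297 and 281 counts. NDUFB9 shared 13.2% with MTSS1 and TATDN1 on the opposite strand, with 871, 360 and 662 counts for MTSS1 and 1063, 866 and 776 for TATDN1. NDUFA11 shared 9.65% with an unnamed protein-coding gene on its own strand that was listed at 0 counts in all 3 libraries. Exon sharing was computed for the members only, so no share over all genes can be set beside the 27 and 29. Whether the counting used strand, and what it did with reads that fit several genes, is not given in the sources used here. The part of shared exons in these log2 ratios was not tested.

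Among the members, low counts went with the same feature. In 13 of the 59 members at least 10% of the exon length belonged also to a gene on the same strand, and all 10 members with a mean under 300 counts were among these 13 (the limit of 300 was chosen after the values were seen). They include the 3 members that fell under the minimum of 100. NDUFA7 had 12, 32 and 27 counts, NDUFA13 had 97, 70 and 66, and NDUFC2 had 88, 84 and 79. NDUFA7 shared 32.5% of its exon length on the same strand, NDUFA13 21% and NDUFC2 18.6%. The gene on the same strand was listed at 0, 1 and 2 counts for NDUFA7 and at 0 in all 3 libraries for NDUFC2, and for NDUFA13 the larger of its 2 neighbours, YJEFN3, had 300, 257 and 283 counts. SDHA, with a mean of 7362 counts, shared 21.7%, but with a gene of release 44 that has no row in the count table. It is therefore not comparable to the members whose neighbours were counted. Exon sharing was computed for the members only, so how often other genes of low count share exons is not known here. Whether shared exons lowered the counts of any member was not tested.

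**Figure D3:**
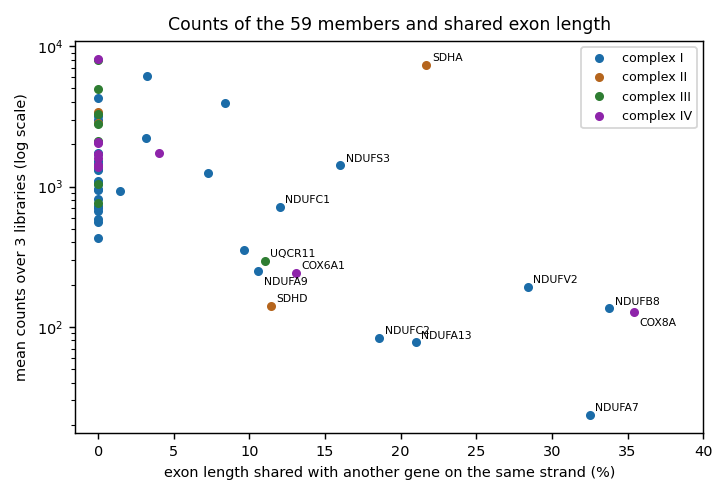
Mean counts over the 3 libraries of each of the 59 members (y axis, log scale) against the percent of its annotated exon length that a gene on the same strand also holds (x axis), coloured by complex. Members sharing 10% or more are named, and all 10 members under 300 mean counts lie among them. SDHA (21.7%) is among the most counted, but the gene it shares exons with has no row in the count table.

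The mitochondrially encoded partners of these complexes had a higher median than the nuclear members in the irradiation comparison and a lower one in the knockdown comparison. All 11 of them were at least 1.5-fold higher in RT than in Ctrl, beside 16.3% of all genes, with log2 ratios of 0.77 (MT-ND4L) to 1.39 (MT-ND3) and a median of 1.12, beside 0.08 in the nuclear members. MT-CO1, the catalytic subunit of complex IV, had 566870, 766120 and 666437 counts and a log2 ratio of 0.87. In the knockdown comparison the median was -0.22, beside 0.03 in the nuclear members. Of the 11, 8 were lower, beside 6477 of the 12113 genes tested. MT-ND2, MT-ND3 and MT-ND6 were higher, at 0.05, 0.21 and 0.15. The counts of the 11 genes were 10.1, 18.6 and 15.2 times those of the 59 nuclear members. This ratio is taken within each library and does not depend on the scaling.

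Assembly factors build the complexes without being part of them. The 16 factors of complex I had a median log2 ratio of 0.43 in the irradiation comparison, beside 0.07 over all genes, and 5 of them were at least 1.5-fold higher, beside 16.3%, with TMEM70 at 0.68 (0.51 to 0.85). All 6 factors of complex III lay above 0, beside 56.2% of all genes, with a median of 0.52 beside -0.05 in its 8 nuclear subunits above. BCS1L, which inserts the Rieske protein UQCRFS1, had 999, 1506 and 1724 counts and a log2 ratio of 1.03 (0.91 to 1.14), and UQCC3 had 0.87 (0.59 to 1.15). The 16 tested factors of complex IV had a median of 0.25, with COA4 at 0.73 (0.61 to 0.84) and the copper chaperone COX17 at -0.42 (-0.63 to -0.22). SCO2 was listed at 0 counts in all 3 libraries. Whether its 0 counts reflect how reads were assigned to genes was not tested, so they do not show that it was not expressed. Of the 3 tested factors of complex II, SDHAF1 was at 0.70 (0.45 to 0.94) and SDHAF3 at -0.46 (-0.86 to -0.06). In the knockdown comparison the medians were 0.06 for complex I, -0.05 for complex III, 0.08 for complex IV and 0.01 for complex II factors. Whether the lists differ from each other was not tested.

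**Figure D4:**
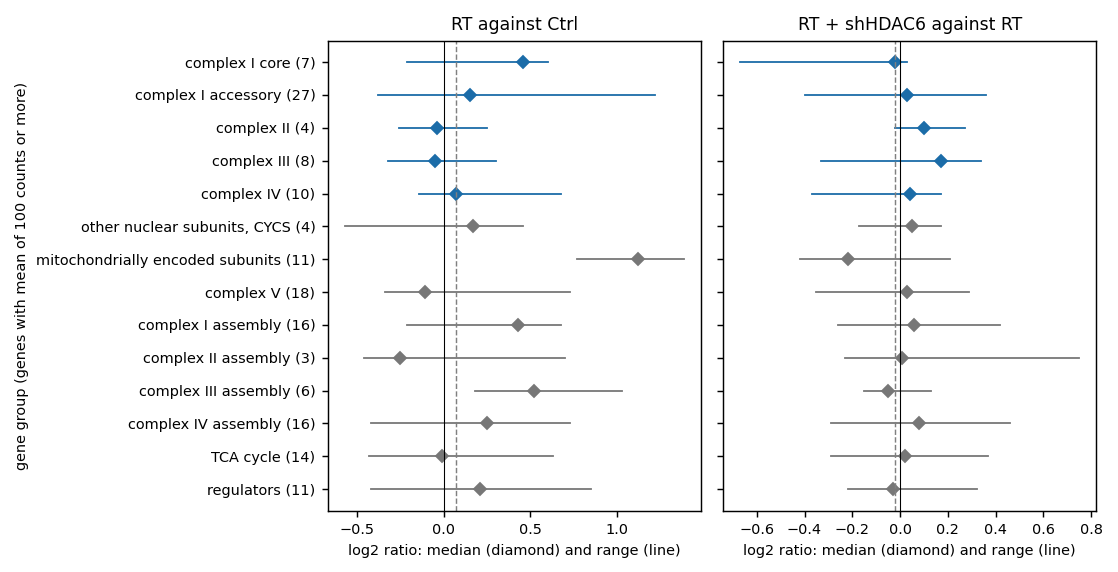
Median (diamond) and range (line) of the log2 ratios of TMM-scaled counts (x axis) of the tested genes of each group (y axis, number of genes in brackets), RT against Ctrl on the left and RT + shHDAC6 against RT on the right; members of complexes I to IV are blue and companion lists grey, and the dashed line is the median of all genes tested. The mitochondrially encoded subunits (1.12) and the complex III assembly factors (0.52) have the highest medians on the left, and complex III (0.17) the highest on the right.

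The 18 subunits of complex V, the ATP synthase, had a median of -0.11 in the irradiation and 0.03 in the knockdown comparison, from ATP5F1C at -0.34 (-0.40 to -0.28) to ATP5MC1 at 0.73 (0.59 to 0.87) in the former. The 14 enzymes of the citric acid cycle had medians of -0.01 and 0.02. Among 4 genes of the chain that the choice of symbols left out, COX7A2L, which takes part in joining complexes III and IV, was at -0.57 (-0.67 to -0.48) in the irradiation comparison, with 2502, 1243 and 1465 counts. The tissue-specific isoforms of complex IV and NDUFA4L2 were all under 100 mean counts, 7 of 7, with COX7B2 the highest at 129, 56 and 33.

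The regulators examined, of nuclear respiratory genes or of mitochondrial gene expression, were not uniform either. In the irradiation comparison, POLRMT, the mitochondrial RNA polymerase, was at 0.85 (0.78 to 0.92), its transcription factor TFB2M at 0.77 (0.63 to 0.90), and the coactivators PPRC1 and PPARGC1B at 0.76 (0.71 to 0.81) and 0.73 (0.61 to 0.85). TFAM, which packages and transcribes mitochondrial DNA, was at 0.26 (0.19 to 0.33), ESRRA at 0.21 (0.09 to 0.33) and NRF1 at 0.17 (0.03 to 0.30). The GABP subunits GABPA and GABPB1 were lower, at -0.42 (-0.50 to -0.34) and -0.37 (-0.49 to -0.24), as were TFB1M at -0.21 (-0.38 to -0.03) and YY1 at -0.19 (-0.25 to -0.13). PPARGC1A had only 22, 9 and 38 counts. In the knockdown comparison, ESRRA (0.32) and PPARGC1B (0.29) were the highest and POLRMT (-0.22) and TFB1M (-0.10) the lowest of the 11 tested, whose median was -0.03.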

How the data were processed

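The authors removed adapters (cutadapt), mapped the reads to GRCh38 (STAR, version 2.6.1a in the submitters' processing notes, another version in the paper) and assigned them to genes of GENCODE release 28 by featureCounts. The values used here are the whole-number read counts they deposited, without normalisation; 0 columns of sample values were left unused. The library kit is a stranded one in both sources but differs between the labels and the paper.

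Symbols and GRCh38 positions came from GENCODE release 44 (57754 identifiers matched). TMM factors were computed with edgeR 4.0.16 and median-of-ratios factors with DESeq2 1.42.0 (R 4.3.3), and the factors were tested on simulated data. Tables were built with Python 3.11.15, numpy 2.4.6 and pandas 2.3.3. Intervals are 95% Clopper-Pearson intervals (scipy 1.17.1) of the 2 counts; no molecular identifiers are mentioned, so PCR copies cannot be told from separate molecules. A count of 0 was set to 0.5. Y-chromosome copies of pseudoautosomal genes (45 rows) stayed in library totals and out of comparisons. A count of 0 allows up to 3 counts, or 0.0662 to 0.0894 scaled CPM. The study's NOISeq calls were not repeated, since their noise is simulated without replicates.

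The members' rule uses symbols only, but members and companion lists were proposed with earlier results of these data known. Named genes are the 5 highest and 5 lowest members in each of the first 2 comparisons, all SDH genes, the catalytic cores, members under 100 mean counts, HDAC6, up to 2 genes at each end of a companion list and all regulators; other members are named as examples chosen after their values were seen. Longer forms of the NRF1 and YY1 letters were searched first (10 letters in 3 of 50 members' windows and 1.5% of all, 11 letters in 4 and 1.18%); the shorter forms were adopted after those counts were seen. Values of 1 member are not reported here by name, and the plot of members leaves it out, while counts, sums and medians include it.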

Additional observations from a re-analysis of the deposited data

How the results depend on the processing

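Both the scaling and the size limit moved values. With library totals only, and with library totals without mitochondrially encoded genes, the members' median log2 ratio for RT against Ctrl turned from 0.084 to -0.13 and -0.099, and for RT + shHDAC6 against Ctrl it was 0.0063 with library totals instead of 0.14. These 2 scalings left 2 members at least 1.5-fold higher for RT against Ctrl instead of 4, and library totals put 1 at least 1.5-fold lower in that comparison and in RT + shHDAC6 against Ctrl. Median-of-ratios factors gave 6 members at least 1.5-fold higher for RT + shHDAC6 against Ctrl instead of 3. Over all genes, the share of higher genes among those past 1.5-fold for RT against Ctrl was 66.6% with TMM, 32.5% with library totals, 37.1% without mitochondrially encoded genes, 57.4% with upper quartile and 74.6% with median-of-ratios factors. For RT + shHDAC6 against RT it was 34.3% with TMM and 47.8% and 46.5% with the first 2, and for RT + shHDAC6 against Ctrl 57.4%, 37.8% and 41.9%.

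With a limit of 25% higher or 20% lower, the members past it numbered 15 and 1 for the irradiation comparison, 3 and 5 for the knockdown comparison, and 13 and 2 for RT + shHDAC6 against Ctrl. With 2-fold, 1, 0 and 0 were higher and 0 were lower in each. By coding length, longest transcript or canonical transcript (the last chosen after seeing the data), 5 of the 10 highest members by exon length stayed among the 10 highest. Under the other alternatives, 49 values stayed within a set limit. For counts it was 1.5 times. For medians it ran from the median lower to the median upper bound of the members' counting intervals. That is the counting error of a typical single member and not of a median over the members. The 49 include leaving out the filter on low counts, 50 members with under 5% of counts in copies and 27 with no shared exon. The last 2 of these were chosen after seeing the data. Of these 49, the median for RT against Ctrl over the 27 members turned in sign, to -0.015. No paired analysis was possible because each condition has 1 library, and for the same reason no library could be left out. Depth limits members under about 300 counts, whose intervals reach 0.2 or more to either side.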
